A study of Mus musculus with 6 samples.

Results

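The genes described here are 37 genes of ribosome biogenesis and the nucleolus, taken by symbol from a list that was set for this work. Each of the 37 symbols was found among the 21899 genes of the deposited tables, and all 37 had enough counts to be among the 12768 genes tested. By role they comprise 3 nucleolar scaffold and chaperone proteins, 4 proteins of the box C/D and 4 of the box H/ACA small nucleolar ribonucleoproteins (snoRNPs), 4 components of RNA polymerase I transcription, 11 factors of the small ribosomal subunit and 11 of the large subunit. Of these 37 genes, 1 fell in KO and 0 rose (edgeR adjusted p under 0.05), where 0.219% of all tested genes fell and 0.454% rose. The gene that fell was Noc2l, which encodes a factor of large subunit assembly, and its call ended when any of 5 of the 6 libraries was left out. For the other 36 genes the log2 fold changes (KO minus WT) lay between -0.21 and 0.02, and none passed the threshold.

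Bulk mRNA was sequenced from induced regulatory T cells (iTregs), which are T cells turned toward the regulatory fate in culture. The 3 WT samples came from mice called iWT, and the 3 KO samples from Dlst-Treg iKO mice, an inducible knockout in Treg cells of Dlst, a gene for a subunit of the 2-oxoglutarate dehydrogenase complex of the TCA cycle. In both groups CD4+ T cells of the spleen were held under Treg polarization with 4-hydroxytamoxifen, the drug that switches on inducible Cre, for 2 days, and CD4+ cells carrying both FoxP3-GFP and tdTomato-RFP were sorted. The labels give neither the alleles, the Cre driver, the strain, the age and the sex of the mice nor whether samples came from separate animals, so each p-value reflects only how these samples vary, in which technical variation may have a part. In bulk samples, fewer cells of a type and less RNA per cell cannot be told apart.

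Libraries held 33590510 to 49772670 estimated counts. Dlst, the targeted gene, stood at 161, 149 and 149 CPM, which are counts scaled by TMM, in WT 1 to 3 and at 125, 129 and 129 CPM in KO 1 to 3, so the groups did not overlap. It did not pass the threshold, with a log2 fold change of -0.26 (SE 0.05) and an edgeR adjusted p of 0.0894 (range over the alternatives 0.00129 to 0.28). Of 8 tested Treg markers 5 were below 0 and 3 above, with a median log2 fold change of -0.08. Of these, 1 passed, Ikzf2, which fell by 0.57 on the log2 scale, while Foxp3 was at 154, 202 and 198 CPM in WT and 231, 207 and 227 CPM in KO. Markers of T cells summed to 3007 to 3110 CPM in WT and 2737 to 2897 CPM in KO, and those of CD8 T and NK cells to 50.2 to 88.4 CPM in WT and 90.8 to 108.7 CPM in KO, with 0 calls in either list. KO 1 and WT 1 stood apart within their groups, with a biological coefficient of variation against their partners of 12.5 to 14.8%, whereas it was 7.12% between WT 2 and WT 3 and 2.97% between KO 2 and KO 3. Summed markers of monocytes and macrophages were at 21.7 to 33.4 CPM in WT and at 384, 103 and 115 CPM in KO 1 to 3, and those of neutrophils at 6.12 to 33.4 CPM in WT and 306, 78.6 and 72.5 CPM in KO. Of 9 tested genes in each list, 2 and 1 rose past the threshold, as did 1 of 4 dendritic cell markers, against 0.454% of all tested genes. In all 9 of both lists every KO library lay above every WT library, against 11.9% of all tested genes. The lists held 12 and 10 genes before the count filter. Genes near 0 in WT can pass that filter through the KO libraries alone, so the shares of all tested genes are not a fair comparison. Of these myeloid markers, C1qa, C1qb and C1qc were near 0, at no more than 0.418 CPM in any library. B cell markers summed to 94.2 CPM in WT 1 and to 14.7 to 31.3 CPM in the other libraries.

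Ribosomes are built in the nucleolus, where RNA polymerase I transcribes the ribosomal RNA precursor. SnoRNPs guide chemical modification of that precursor, the small subunit processome and the pre-60S particles cut and fold it together with ribosomal proteins, and the maturing subunits leave for the cytoplasm. In T cells this machinery is known to expand after activation, as cells grow and begin to divide, and many of its genes are known targets of the transcription factor MYC. The libraries were made from mRNA, so the values describe the mRNAs of the factors and not ribosomal RNA or ribosomes.

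To check the label, the annotation deposited with the tables placed all 37 genes in the nucleolus, against 802 of the tested genes (6.28%). The deposited pathway term for ribosome biogenesis held 15 of the 37, and the deposited process terms for ribosome biogenesis or rRNA processing held 27. The genes lay on 18 chromosomes in GENCODE M21 (GRCm38). Small nucleolar RNA genes lay inside 7 of the 37 on the same strand (18.9%), against 205 of 12697 tested protein-coding genes (1.61%). Nop56, a core box C/D protein, held 5, its partner Nop58 held 4, and Ncl, Wdr43 and Gnl3 held 3 each. Tsr1 held 2 and Dkc1 held 1, and none of these small RNAs was listed in the deposited tables.

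MYC with its partner MAX binds the E-box CACGTG, so the promoters were searched for it. Whether a box went with the movement of these genes between libraries was not tested. RefSeq promoter windows (GRCm38.p6, 250 bases before to 50 after the start) matched 31 of the 37 genes, with 40 windows. CACGTG, which reads the same on both strands, was in 7 of the 31 genes (22.6%) and in 17.5% of their windows. It was in 7.15% of all 32851 windows and in 9.72% of the 12720 windows of tested genes. By gene, it was in 11.5% of the 9984 tested genes that matched. Counting only the bases before the start, 2 of the 31 genes held it (6.45%), against 9.72% of the tested genes. In the wider list of ribosome biogenesis genes given below, 20 of 96 matched genes held it (20.8%), and 11 before the start (11.5%). A match is a description of the letters and does not show binding. The lines below give each box in capitals with up to 10 bases on either side, 5′ to 3′ on the strand of the gene, for the small and large subunit factors and the polymerase I factor that carry it.
Nop2, chr6:125131813-125131838, plus strand, box beginning 60 bases before the start: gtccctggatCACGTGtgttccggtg
Pes1, chr11:3963967-3963992, plus strand, box beginning at base 3 after the start: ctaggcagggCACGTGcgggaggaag
Utp4, chr8:106893645-106893670, plus strand, box beginning at base 16 after the start: cgcaagcgcgCACGTGgggccggggc
Utp20, chr10:88826765-88826787, minus strand, box beginning at base 38 after the start: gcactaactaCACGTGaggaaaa
Tsr1, chr11:74898094-74898119, plus strand, box beginning at base 25 after the start: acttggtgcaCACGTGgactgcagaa
Wdr43, chr17:71616222-71616247, plus strand, box beginning at base 18 after the start: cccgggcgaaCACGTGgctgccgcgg
Rrn3, chr16:13780474-13780499, plus strand, box beginning 215 bases before the start: gcgccaaggtCACGTGcacacgcctc
Rrn3, chr16:13780641-13780666, plus strand, box beginning 48 bases before the start: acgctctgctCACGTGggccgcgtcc
All of these genes but Rrn3 held a single box, and Rrn3, which recruits RNA polymerase I to ribosomal DNA, held 2. None of the 7 genes passed the test of KO against WT, and 36 of all 37 genes did not pass it.

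The genes were well expressed. On the TPM scale, which takes length into account with gene lengths that the deposited tables do not give, the median level of the 37 in WT was 93.7, against 19.3 for all tested genes, and all 37 stood above that second value. Npm1, the nucleolar chaperone nucleophosmin, led at 3119 ± 155 TPM in WT and 3056 ± 187 TPM in KO (SD, n = 3 each). Ncl, which encodes nucleolin, a protein that binds ribosomal RNA precursors and chromatin, and Nop58 followed at 437 ± 32.9 and 437 ± 28.2 TPM in WT. Together, Npm1 and Ncl held 46.1% of the summed TPM of the 37 genes in WT. Levels then descended through Nop56 (379 ± 35.1 TPM in WT) and the methyltransferase Fbl (349 ± 39.8) to Dkc1 (195 ± 21.9). The lowest levels were those of Noc3l, at 29.5 ± 1.19 TPM, and Utp20, at 28.5 ± 4.00 TPM, a span of 109-fold from the highest. Of the 36 neighbouring pairs in this order, 7 had WT libraries that did not overlap, among them Npm1 over Ncl and Fbl over Dkc1. The order between most other neighbours was within the spread of the libraries. The sum over the 37 genes was 8078, 7218 and 7824 TPM in WT 1 to 3 and 6907, 7649 and 7612 TPM in KO 1 to 3, so KO 1 was lowest and WT 1 highest, and KO 2 and KO 3 lay inside the WT range.

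**Figure D1:**
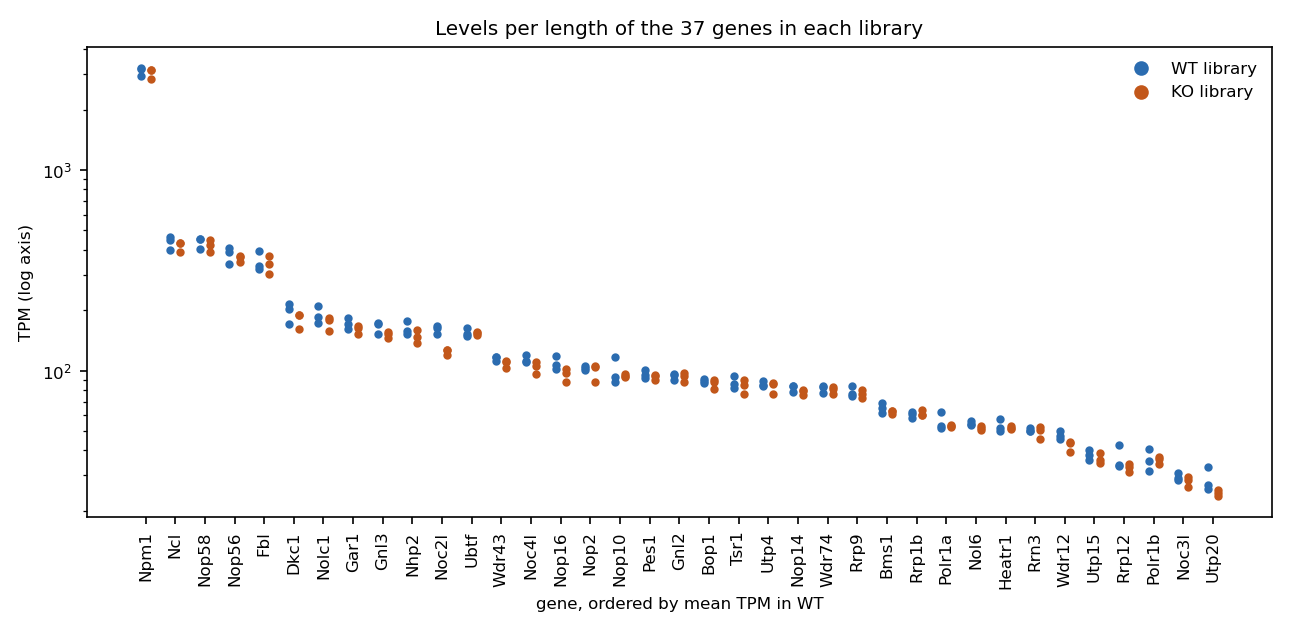
Level of each of the 37 genes per library, in TPM on a log axis, ordered by the WT mean; each point is 1 library (blue WT, orange KO). WT and KO points lie close together for most genes, and the KO points of Noc2l (124 ± 4.43 TPM) lie below its WT points (161 ± 7.98 TPM).

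Noc2l was the single gene of the 37 that passed the threshold. Its protein works with partner proteins in the export of large subunit precursors, and it is also known to bind p53 and to inhibit histone acetylation. Noc2l stood at 266, 248 and 259 CPM in WT 1 to 3 and at 190, 203 and 203 CPM in KO 1 to 3. All KO libraries lay below all WT libraries, and the gap between the groups was wider than the range within either. On average WT libraries held 258 ± 9.49 CPM of Noc2l and KO libraries 199 ± 7.68 CPM (SD, n = 3 each). Noc2l fell by 22.9%, a log2 fold change of -0.37 (SE 0.05, 95% interval -0.50 to -0.25; edgeR quasi-likelihood test with Benjamini-Hochberg adjustment over all genes, adjusted p = 0.0311). Over all 12768 genes, 28 fell and 58 rose, 86 in all (0.674%), and a single gene among 37 is too few to set against these shares. Across the 16 alternative settings its log2 fold change stayed between -0.40 and -0.32, and the adjusted p was below 0.05 in 9. It was 2.43e-07 with DESeq2 and 0.0458 without KO 1. Leaving out any of the other 5 libraries ended the call, with adjusted p of 0.0581 without WT 1, 0.0892 without WT 2, 0.128 without WT 3, 0.0805 without KO 2 and 0.152 without KO 3, and the call also ended with the replicate block (0.0595) and with KO 2 and KO 3 summed (0.111). Calls over all genes fell from 86 to 27, 16, 10 and 4 without WT 2, WT 3, KO 2 and KO 3, but numbered 93 without WT 1.

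Noc2l (ENSMUSG00000095567) is a plus-strand gene of chromosome 4, between positions 156236010 and 156247616. Its last part overlaps Samd11, on the opposite strand, over 651 bases, and the strand setting of the counting is not stated. Samd11 had 0.220 CPM in WT and 0.398 CPM in KO, far below Noc2l. Noc2l was also among 13 of the 37 genes with estimated counts that were not whole numbers in at least 1 library. Of 25 tested neighbours with a GENCODE M21 position within 500 kb, 15 had a fold change below 0 and 10 above, with a median log2 fold change of -0.05. Tested genes without a match there could not be placed, among them Klhl17 (log2 fold change 0.30, SE 0.13, edgeR adjusted p = 0.324). At an unadjusted p under 0.05 edgeR counted 8 of the 25 (32.0%, against 15.1% of all tested genes), of which 6 were lower in KO (24.0%, against 6.6%). Among those neighbours 1 passed the threshold, Mxra8, which rose by 3.22 on the log2 scale. Mxra8 was near 0 in WT, with a mean of 0.183 CPM, and its KO mean was 1.69 CPM. A gene that low in WT may have been kept by the count filter because of its KO counts only. Of all tested genes 0.674% passed, and 1 call among 25 neighbours is too few to set against that share.

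The scaffold genes showed no change that passed. Ncl was at 1988, 1739 and 1904 CPM in WT and 1675, 1915 and 1921 CPM in KO, with a log2 fold change of -0.03 (SE 0.07). Npm1 was at 2055, 1948 and 2079 CPM in WT and 1845, 2076 and 2076 CPM in KO, with -0.02 (SE 0.06). In both genes KO 1 was the lowest library and KO 2 and KO 3 lay within the WT range. Nolc1, which encodes a chaperone of snoRNPs, was at 305, 258 and 272 CPM in WT and 236, 272 and 269 CPM in KO, with -0.10 (SE 0.08). The smallest adjusted p of the group was 0.591, and the intervals of these 3 genes together ran from -0.29 to 0.14.

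Of the 4 box C/D genes, whose complexes add methyl groups to ribosomal RNA, 0 passed, with a median log2 fold change of -0.04 and a smallest adjusted p of 0.646. Fbl, the methyltransferase fibrillarin, was at 262, 220 and 222 CPM in WT and 208, 230 and 239 CPM in KO, with a log2 fold change of -0.06 (SE 0.09). The core proteins Nop56 and Nop58 had log2 fold changes of -0.07 (SE 0.06) and -0.02 (SE 0.06), and Rrp9, the protein specific to the U3 particle, had -0.03 (SE 0.07). KO 1 was the lowest library in all 4.

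The 4 box H/ACA genes belong to the complexes that convert uridine to pseudouridine and also bind the telomerase RNA. Nhp2 was at 105, 92.4 and 93.0 CPM in WT and 82.1, 95.6 and 88.0 CPM in KO, and only KO 1 and KO 3 were below every WT library. Its log2 fold change was -0.13 (SE 0.08, edgeR adjusted p = 0.472), the smallest adjusted p of the group. Dkc1, the pseudouridine synthase dyskerin, had -0.07 (SE 0.08), and Gar1 had -0.09 (SE 0.07). Nop10 was at 74.1 CPM in WT 1 and between 57.1 and 61.6 CPM in the other 5 libraries, so its log2 fold change of -0.07 (SE 0.10) became 0.06 without WT 1. WT 1 was the highest library in all 4 genes.

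For RNA polymerase I the values of KO and WT were close. Ubtf, the factor that bends ribosomal DNA and keeps it open, was at 255, 261 and 269 CPM in WT and 260, 266 and 263 CPM in KO, and all KO values lay inside the WT range. The catalytic subunit Polr1a had a log2 fold change of -0.06 (SE 0.06), Rrn3 of -0.03 (SE 0.06), Ubtf of 0.01 (SE 0.05) and Polr1b, the other large subunit of the enzyme, of 0.01 (SE 0.09). The smallest adjusted p was 0.696, and the signs of all 4 turned under some settings. The 95% intervals of the 4 genes ran from -0.20 to 0.21.

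All 11 small subunit genes had log2 fold changes below 0, from -0.21 to -0.03 with a median of -0.06, and 0 passed. Utp20, a large scaffold protein of the processome, was at 164, 137 and 126 CPM in WT and 120, 121 and 129 CPM in KO. KO 3 overlapped the WT range and WT 1 lay well above the other WT libraries. Its log2 fold change of -0.21 (SE 0.09, edgeR adjusted p = 0.358) rested in part on WT 1 and was -0.095 without it. Rrp12, an export factor, was at 105, 85.6 and 82.7 CPM in WT and 77.4, 85.1 and 83.1 CPM in KO, with -0.15 (SE 0.09). Without WT 1 the value for Rrp12 was -0.041, and without both WT 1 and KO 1 it was -0.001. Noc4l, a factor of the small subunit, was at 142, 134 and 131 CPM in WT and 114, 133 and 126 CPM in KO, with -0.13 (SE 0.07). In Rrp12 and Noc4l, KO 2 lay inside the WT range. Nol6 was at 147, 144 and 142 CPM in WT and 134, 138 and 140 CPM in KO, groups that did not overlap, with a log2 fold change of -0.07 (SE 0.05, edgeR adjusted p = 0.515). Wdr43, a further processome protein, had -0.06 (SE 0.05).

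Among the 11 large subunit genes, Noc2l passed and 10 did not, and their median log2 fold change was -0.06. Nop16 was at 74.0, 68.9 and 69.6 CPM in WT and 58.7, 66.6 and 66.3 CPM in KO, again with no overlap, and it too missed the threshold, with a log2 fold change of -0.15 (SE 0.07, edgeR adjusted p = 0.336). Noc3l, a partner of Noc2l in the pre-60S particle, was at 66.1, 66.2 and 69.8 CPM in WT and 60.3, 67.9 and 65.4 CPM in KO, with -0.06 (SE 0.06). So the values of Noc3l overlapped between the groups where those of Noc2l did not; the difference between the 2 genes was not tested. Wdr12, which with Pes1 and Bop1 forms a complex needed for processing of the large subunit RNAs, had -0.07 (SE 0.05), Pes1 -0.04 (SE 0.05) and Bop1 -0.04 (SE 0.06). Gnl3, the GTPase nucleostemin, had -0.07 (SE 0.07), and Rrp1b was at 0.02 (SE 0.05), the highest value of the 37.

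**Figure D2:**
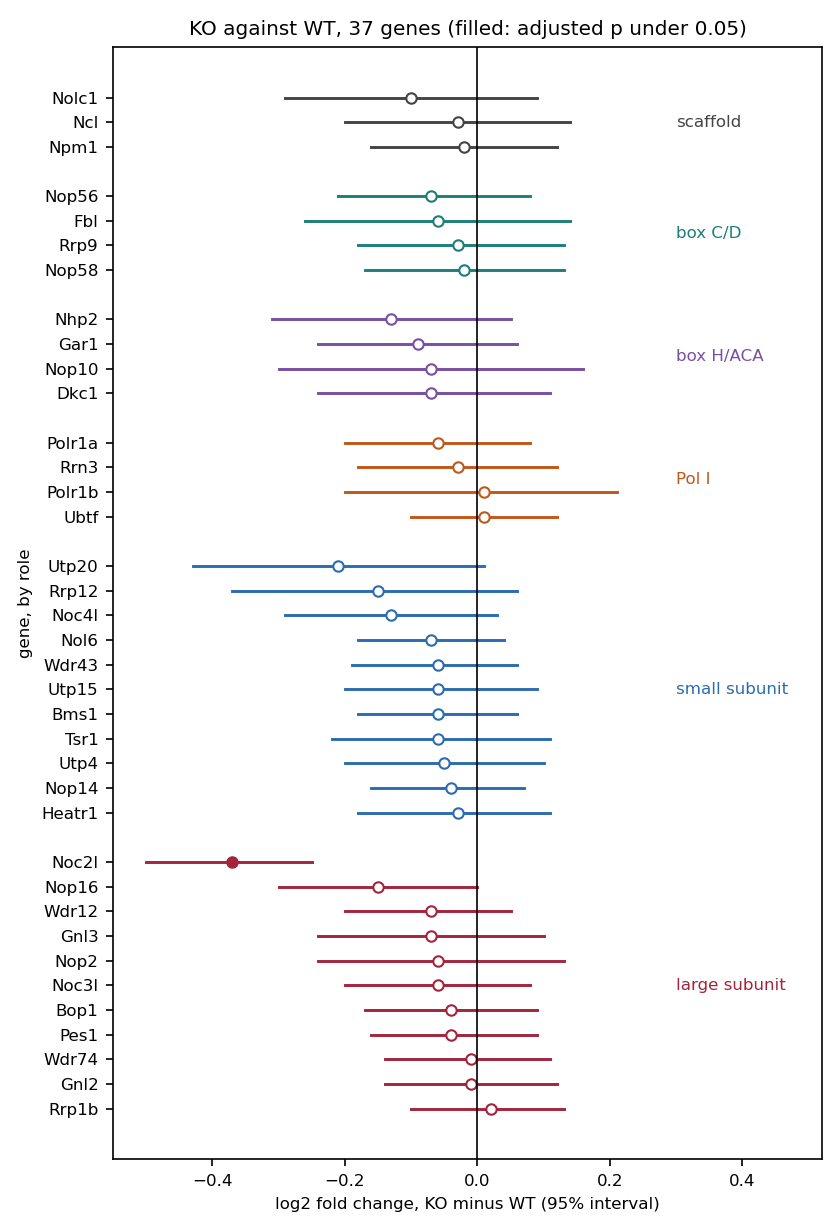
Log2 fold change (KO minus WT) of each of the 37 genes with its 95% interval, grouped by role; a filled point passed the adjusted p threshold. Noc2l, at -0.37, is the single filled point, and the intervals of the other 36 genes reach or cross 0.

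Groups of libraries that did not overlap were seen for 3 of the 37 genes with KO below WT (8.11%), namely Noc2l, Nop16 and Nol6, and for 0 with KO above WT. Over all tested genes the shares were 10.9% below and 11.9% above. At an unadjusted p under 0.05, edgeR counted 1 of the 37, which was lower in KO, against 15.1% of all tested genes in either direction and 6.6% lower. DESeq2 called 4.17% of all genes, and 1 of the 37, again Noc2l. The depth was sufficient for narrow intervals: the lowest count of any of the 37 genes in any library was 1926. For 29 of the 37 the 95% interval lay within 1.2-fold in either direction, against 38.8% of all tested genes, and for all 37 it lay within 1.5-fold (71.3% of all tested genes). It lay within 1.1-fold for 3 of the 37 (3.49% of all tested genes), so differences as small as that were not resolved for most of the genes.

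Of the 37 fold changes, 34 were below 0 and 3 above (Rrp1b, Ubtf and Polr1b), with a median of -0.06, where 50.9% of all tested genes were below 0 with a median of -0.00. KO 1 and WT 1 stood furthest out in these genes. KO 1 was the lowest of the 6 libraries for 31 of the 37 genes (83.8%), against 26.6% of all tested genes, and WT 1 the highest for 24 (64.9%), against 24.6%. Against the WT mean of each gene, the median log2 difference was -0.15 in KO 1, -0.00 in KO 2 and -0.03 in KO 3, and 36, 19 and 25 genes lay below it. KO 2 and KO 3 both lay inside the WT range for 20 of the 37. Without KO 1 the median log2 fold change was -0.01, with 23 genes below 0 and 14 above. Without WT 1 it was -0.03, with 27 below and 10 above, and without both libraries 0.015, with 16 below and 21 above. Without WT 2, WT 3, KO 2 or KO 3 it was -0.081, -0.06, -0.076 and -0.071. Leaving out the mostly lowest KO library or the mostly highest WT library raises the median by construction, so these values show no cause. Single genes moved likewise: Nop16 was at -0.091 and Noc4l at -0.067 without KO 1, and Nhp2 at -0.067 without WT 1. Noc2l lay below the rest in each KO library: its differences from its WT mean were -0.44, -0.34 and -0.34, and the lowest of any other gene was -0.27 (Nop16) in KO 1, -0.22 (Utp20) in KO 2 and -0.14 (Utp20) in KO 3. Noc2l was named for its fall in these same libraries, so this describes that fall and is not separate support for it.

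**Figure D3:**
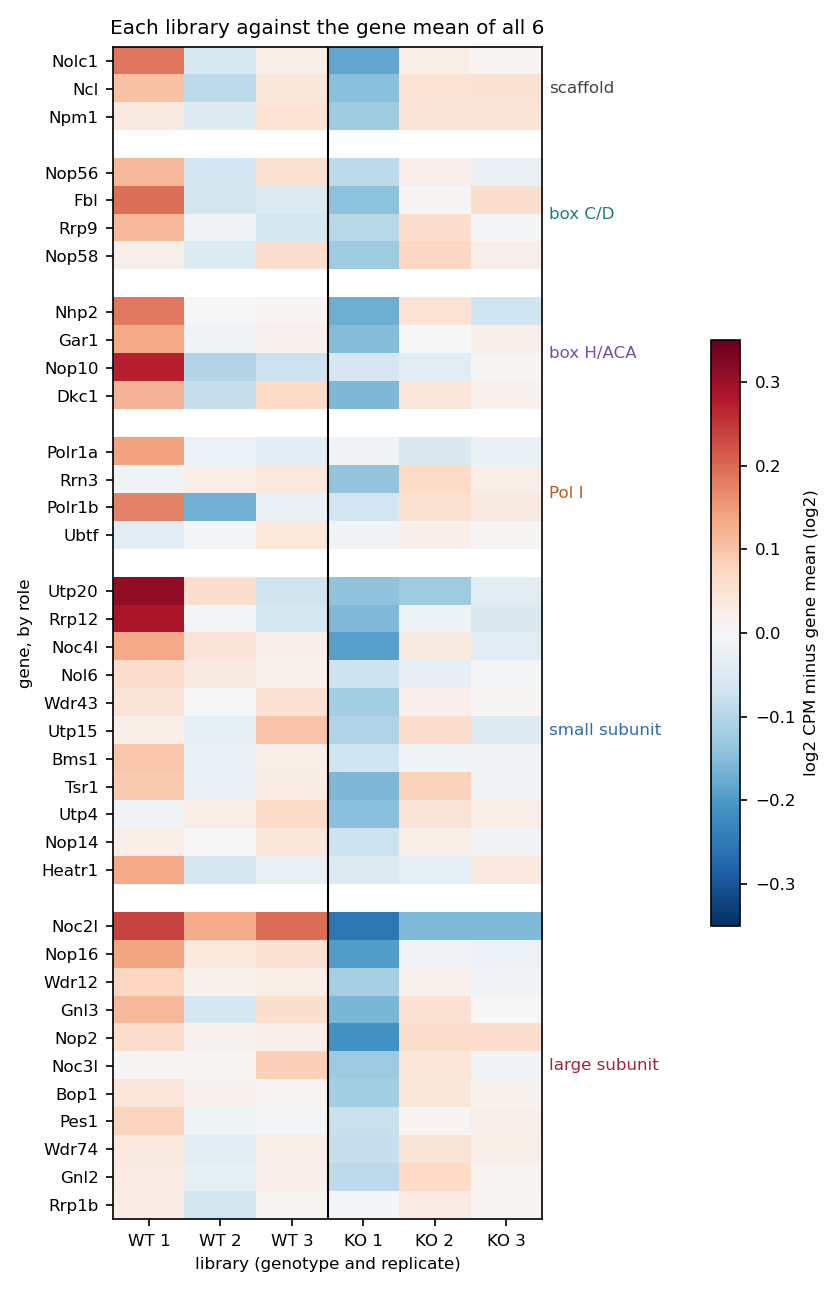
Log2 CPM of each of the 37 genes in each library minus the mean of that gene over all 6 libraries, grouped by role (red above the mean, blue below). The KO 1 column is below the mean in 37 of 37 genes and WT 1 is mostly above it, whereas Noc2l is above it in all WT and below it in all KO libraries.

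Most cell cycle genes were also lowest in KO 1. This held for 75.0% of S phase and 87.5% of G2 and M phase genes, against 26.6% of all tested genes. Their highest library differed between the lists, and KO 1 was the highest for 1 gene of each. Fold changes were below 0 on the log2 scale for 24 of 24 S phase genes and for 24 of 24 mitotic (G2 and M phase) genes, each list with a median of -0.18, and 0 of either passed. At an unadjusted p under 0.05, 7 S phase genes (29.2%) and 9 mitotic genes (37.5%) were lower in KO, against 6.6% of all tested genes. Every KO library lay below every WT library for 25.0% and 33.3% of them, against 10.9%. S phase genes summed to 5303, 4228 and 4644 CPM in WT and 3951, 4335 and 4306 CPM in KO, highest in WT 1 and lowest in KO 1. G2 and M phase genes summed to 3189, 2927 and 3416 CPM in WT and 2784, 2792 and 2927 CPM in KO, highest in WT 3. The median deviation of the 37 genes from their means was 0.10, -0.02 and 0.02 in WT and -0.12, 0.03 and 0.00 in KO. The S phase list was at 0.25, -0.08 and 0.07 in WT and -0.16, -0.06 and -0.05 in KO. The part of the cell cycle genes, and of the myeloid and B cell markers given above, in the values of KO 1 and WT 1 was not tested. For Noc2l, the fold change without KO 1 was -0.34, and without both WT 1 and KO 1 it was -0.32 with an edgeR adjusted p of 0.00716. In that last setting 538 genes passed over all genes, against 86 with all 6 libraries. With KO 2 and KO 3 summed, the edgeR adjusted p of Noc2l was 0.111.

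**Figure D4:**
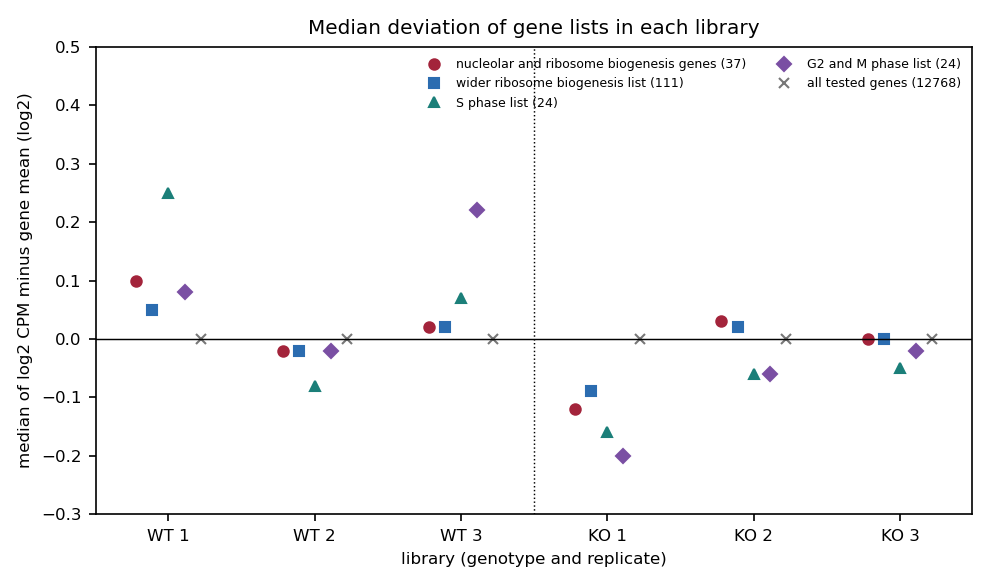
Median over each gene list of log2 CPM minus the gene mean, per library, for the 37 genes, 111 further ribosome biogenesis genes, 24 S phase genes, 24 G2 and M phase genes and all 12768 tested genes. KO 1 has the lowest point of each of the 4 lists, and all tested genes stay at 0.

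A wider list of 111 further ribosome biogenesis genes, all tested, gave 0 calls with edgeR, 6 genes at an unadjusted p under 0.05 (5.41%, against 15.1% of all tested genes) and 1 call with DESeq2 (0.901%, against 4.17% of all genes with a DESeq2 adjusted p). With edgeR, 0.674% of all tested genes passed, and 0 or 1 call among 111 genes is too few to set against such shares. The share at an unadjusted p is below that of all genes. The list was chosen with earlier results known, so this is a description. Its median log2 fold change was -0.04, with 84 genes below 0 (75.7%, against 50.9% of all tested genes) and 27 above. Of its 3 groups, the 54 large subunit genes had a median of -0.05, the 39 small subunit genes -0.04 and the 18 polymerase I genes -0.02. KO 1 was the lowest library for 78 of the 111 (70.3%), and without both WT 1 and KO 1 the median was 0.017. The DESeq2 call was Zfp593, a factor that joins late pre-60S particles, at 31.8, 29.5 and 30.0 CPM in WT and 25.3, 23.5 and 26.4 CPM in KO. Its log2 fold change was -0.28 (SE 0.07, edgeR adjusted p = 0.128, DESeq2 0.0459), and the groups did not overlap. Efl1, the GTPase that releases an anti-association factor from the large subunit, had -0.17 (SE 0.05, edgeR adjusted p = 0.191) with no overlap.

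The other genes named from the wider list stood on either side of 0. Ngdn, a processome protein, was at 41.6, 47.8 and 43.9 CPM in WT and 53.7, 50.8 and 53.9 CPM in KO, with a log2 fold change of 0.25 (SE 0.06, edgeR adjusted p = 0.152). Taf1a and Taf1c, subunits of the selectivity factor that brings RNA polymerase I to its promoter, had 0.20 (SE 0.07) and 0.16 (SE 0.06), with edgeR adjusted p of 0.237 and 0.25. In Ngdn, Taf1a and Taf1c every KO library lay above every WT library. Over the wider list this was so for 5 of 111 genes (4.5%), and the reverse for 12 (10.8%), against 11.9% and 10.9% of all tested genes. Rcl1, a processome factor, had -0.14 (SE 0.05, edgeR adjusted p = 0.281). The MYC network had 10 tested genes of 11 and 0 calls. Myc itself was at 347, 365 and 377 CPM in WT and 378, 389 and 380 CPM in KO, each KO library above each WT library, with a log2 fold change of 0.08 (SE 0.05, edgeR adjusted p = 0.524). Of the 10 genes 7 were above 0 and 3 below, with a median of 0.04. Max, the partner of Myc, had 0.10 (SE 0.06), and the antagonists stood on both sides, with Mxd1 at 0.22 (SE 0.13), Mxd4 at 0.17 (SE 0.11) and Mxi1 at -0.20 (SE 0.11).

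By the deposited annotation without the 37 genes, the ribosome biogenesis pathway had 57 tested genes and 0 calls, with a median log2 fold change of -0.04. Of the 57, 40 were below 0 (70.2%, against 50.9% of all tested genes). The process terms had 180 tested genes, 0 calls and a median of -0.03. The nucleolus annotation had 765 tested genes and a median of -0.02. Of these genes 2 rose and 2 fell, where 0.454% of all tested genes rose and 0.219% fell.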

How the data were processed

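Bulk mRNA of sorted iTregs was profiled in 6 samples, 3 WT and 3 KO, grouped by the genotype in the labels. The submitters' processing notes name FastQC and HISAT2 with no version; for the counting program, genome build and annotation nothing is given in the sources used here. The authors deposited 2 tables a sample, per the file headers, with estimated counts per gene (expected counts, 23.5 to 25.2% of genes not whole) and TPM, scaled by gene length and library total. The expected counts were rounded. The main test was edgeR's quasi-likelihood test, two-sided (version 4.0.16, robust, filterByExpr, TMM factors 0.988 to 1.01), with genotype as the single term, on 12768 genes (9131 not kept), with Benjamini-Hochberg adjustment and a threshold of 0.05. CPM are TMM-scaled, log2 fold changes are KO minus WT, and intervals are at 95%.

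The members, the role groups, the wider list and the other lists were chosen with earlier results of these data known. Gene positions came from GENCODE M21 (21806 identifiers matched, 93 not), which need not be the authors' annotation. Named by rule were members past the threshold, up to 3 of the smallest p in each role group, the highest and lowest TPM of each group, members called under an alternative, the 2 of smallest p in each group of the wider list, Myc and Dlst. Nol6, Rrp1b, Pes1, Bop1, Max, Mxi1, Mxd1, Mxd4, Ikzf2, Foxp3, Mxra8, Klhl17 and the genes with an E-box were chosen after their values were seen or for another feature. Alternatives used DESeq2 1.42.0, limma 3.58.1 on log2(TPM + 1) and log2(TPM + 0.1), other normalizations and filters, and fewer libraries. Scripts were tested on simulated data. Software was R 4.3.3 and Python 3.11.15 with matplotlib 3.10.9 and pandas 2.3.3.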

Additional observations from a re-analysis of the deposited data

How the results depend on the processing

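KO 2 and KO 3 differed by more than sampling noise over all genes (chi-square per gene 3.56, against 14.9 to 43.5 for the other pairs). Over the 37 genes the median chi-square was 0.771, against 6.11 to 25.5 for the other pairs. So for these genes KO 2 and KO 3 were nearer to sampling noise than any other pair. A median is not on the scale of the value per gene, so the 37 genes cannot be set against all genes here. KO 2 and KO 3 were counted as 2 samples, as the labels list them, and summed as an alternative. Their difference over all genes does not show that they came from separate animals or cultures. Genes called over all genes numbered 86, and 532 with DESeq2, 133 with no low-count filter, 53 with a stricter filter (at least 5 CPM in 3 libraries), 177 with the replicate block, 538 leaving out both WT 1 and KO 1, 8 with KO 2 and KO 3 summed, and 4 to 93 leaving out 1 library (27 without WT 2, 16 without WT 3, 10 without KO 2 and 4 without KO 3). Members called numbered 1, and 0 with the replicate block and with KO 2 and KO 3 summed, and 0 to 1 leaving out 1 library. The replicate numbers were not shown to pair the samples: deviations of same-numbered libraries correlated at 0.18, 0.08 and 0.08 across genes, and KO 3 correlated best with WT 2, at 0.11. The wider list had 0 calls, and 1 with DESeq2. Leaving out both WT 1 and KO 1, the median was 0.015 for the 37 genes and 0.017 for the wider list. The cause of these changes was not tested.

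Signs turned in 33 of the values of named genes, over 15 genes. Leaving out both WT 1 and KO 1, the log2 fold change was 0.075 for Ncl, 0.045 for Npm1, 0.086 for Fbl, 0.002 for Nop56, 0.039 for Nop58, 0.073 for Nop10, 0.008 for Gar1, 0.034 for Dkc1, 0.03 for Nolc1, 0.066 for Rrp9, 0.026 for Gnl3, 0.016 for Rrn3 and -0.004 for Ubtf. Ubtf was at -0.008 with either TPM setting, and Polr1b at -0.013 with KO 2 and KO 3 summed. Leaving out 1 library, the range was -0.082 to 0.032 for Ncl, -0.049 to 0.036 for Npm1, -0.103 to 0.029 for Fbl, -0.062 to 0.036 for Nop58, -0.139 to 0.057 for Nop10, -0.066 to 0.024 for Rrp9, -0.091 to 0.001 for Polr1a, -0.071 to 0.099 for Polr1b, -0.071 to 0.032 for Rrn3 and -0.012 to 0.026 for Ubtf. None of these genes passed under any setting. With 3 libraries a group, depth limited the values less than the spread between libraries did.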
